A study of Mus musculus with 4 samples.

Results

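Organoids with 1 deleted Yap1 allele (Yap+/-) were compared, gene by gene, with transgenic YapTg organoids whose Yap transgene had not been switched on. These are the pair of cultures in the series that had neither full loss nor induction of Yap. A gene entered the comparison when it reached 1 RPKM (reads per kilobase of gene, scaled to the library total) in either library and was not Y-linked, which left 10880 of the 22632 genes in the deposited table. The Yap+/- crypts were labelled Yap+/fl;VillinCre, so that Cre recombinase under the Villin promoter acts in the gut epithelium. The YapTg crypts carried a wild-type Yap transgene that needs doxycycline and a Cre-dependent reverse tetracycline transactivator, and this culture received no doxycycline. The other libraries served only to read each difference further: Yap-/- (Yapfl/fl;VillinCre, both alleles deleted) and YapTg with doxycycline added at seeding. All 4 cultures were started from small intestinal crypts in Matrigel with Egf, Noggin and R-spondin, and all were harvested 24 hours after seeding. The sources used here do not give the mice's age, sex or strain, or the stretch of intestine taken. Each group was 1 library, so nothing below could be checked against replicates or tested. Genotype, organoid line, animal and library cannot be told apart, and neither can sex as Y-linked genes show it. The 3 Y-linked genes left out stood above 1 RPKM in both floxed libraries and at 0 in both YapTg libraries.

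The small intestinal epithelium is renewed from stem cells at the crypt base, which sit between Paneth cells that secrete lysozyme and alpha-defensins. Their descendants divide and become absorptive enterocytes or secretory goblet, enteroendocrine and tuft cells. Gene use also changes along the length of the gut: the duodenum and jejunum take up iron, calcium and fat, and the ileum takes up bile acids. Organoids from isolated crypts keep much of the character of the stretch they came from. YAP is the transcriptional co-activator that the Hippo kinases restrain.

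Library totals recovered from the deposited values were 56926423 reads for Yap+/- and 44934170 for uninduced YapTg, with 87.9% and 90.3% of them in genes. A gene of 2 kb at 1 RPKM then has 113.9 and 89.87 reads. The epithelial label held in both: Vil1, the brush border actin bundler, stood at 217, 229, 222 and 208 RPKM in the order Yap+/-, Yap-/-, uninduced YapTg and induced YapTg, which is used for every set of 4 values below. Of 16 stromal markers only Vim reached the floor (3.39, 3.46, 2.26 and 0.381 RPKM), and of 17 immune markers only Lyz2, Cd52 and Csf1r did, none above 2.79 RPKM in the pair. Summed over each list, stromal markers came to 3.70 RPKM in Yap+/- and 2.64 in uninduced YapTg, and immune markers to 5.02 and 8.80. Their part in the differences below was not tested. No red blood cell marker passed 0.0926 RPKM.

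Most genes stood close together in the pair. The median log2 ratio of Yap+/- over uninduced YapTg was -0.11, with a pseudocount of 1 RPKM, and the median distance from 0 was 0.21. Only 878 genes (8.07%) lay outside 1.5-fold. At least 2-fold higher in Yap+/- were 118 genes (1.08% of those tested), and at least 2-fold lower were 79 (0.726%), together 1.81%. Past 4-fold there were 14 higher and 20 lower genes. Without predicted genes, Riken clones, pseudogenes and multi-copy families 84 higher and 38 lower genes remained. Just inside the floor were Ppef1 at 0.650 and 1.00 RPKM in Yap+/- and uninduced YapTg and Arhgap29 at 0.710 and 1.00 RPKM. Just outside it were Bmx at 0.9999 and 0.245 RPKM and Tceal8 at 0.589 and 0.999 RPKM.

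**Figure D1:**
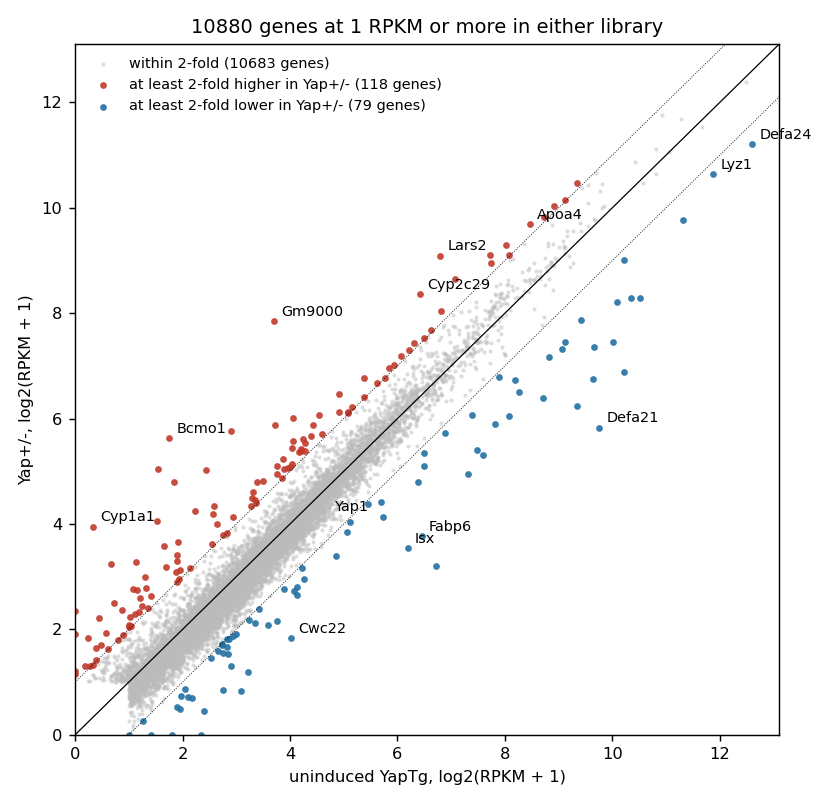
Level of 10880 genes in uninduced YapTg (horizontal axis) and Yap+/- (vertical axis), each as log2(RPKM + 1), 1 point per gene. The solid line marks equal levels and the dotted lines 2-fold, with 118 genes above the upper and 79 below the lower dotted line.

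The ratio ran with gene length. Genes were cut into 5 equal classes by exon length. From the shortest to the longest class the median log2 ratio was 0.04, -0.04, -0.12, -0.16 and -0.23. The shortest class held 77 of the 118 higher and 51 of the 79 lower genes. Yap-/- over induced YapTg sloped the same way over a wider span, from 0.18 to -0.22. Within the lines the slope was smaller for Yap-/- over Yap+/- (0.06 to 0.04) than for induced over uninduced YapTg (-0.15 to 0.00). The part of RNA quality or library preparation in this was not tested. Centring each class on its own median left 117 higher and 68 lower genes. Median-ratio scaling moved the median of all genes from -0.11 to 0.01 and the calls to 169 higher and 62 lower, so that the higher share of all calls went from 59.9% to 73.2%. List medians are therefore read below against the -0.11 of all genes.

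**Figure D2:**
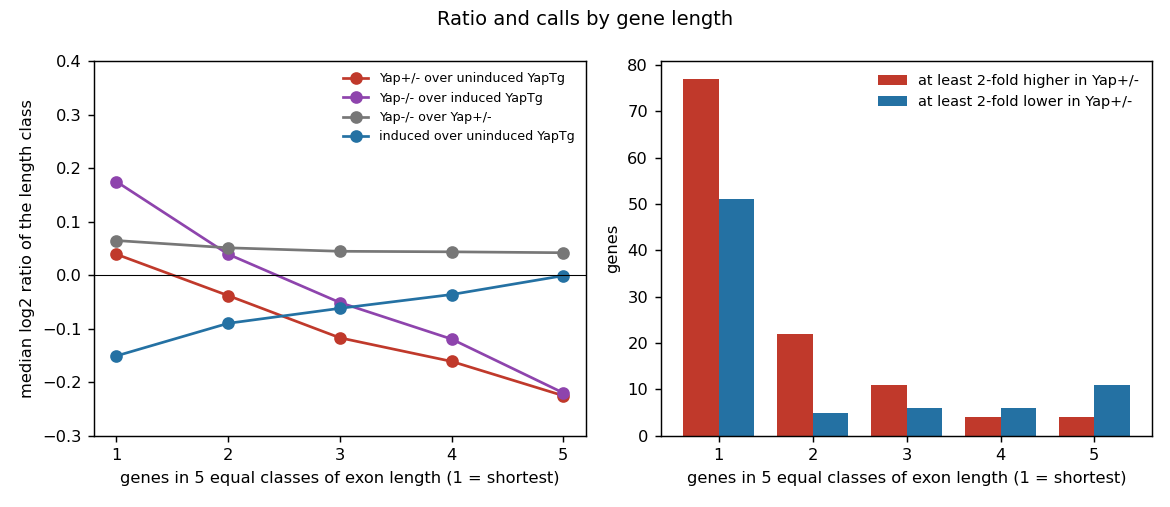
Left, median log2 ratio in each of 5 equal classes of genes by exon length for 4 pairs of libraries. Right, genes at least 2-fold higher (red) or lower (blue) in Yap+/- by length class. The Yap+/- over uninduced YapTg line goes from 0.04 to -0.23, and 77 of the higher genes lie in the shortest class.

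Yap1 itself was lower in Yap+/- than in uninduced YapTg by 1.50-fold (exact conditional binomial 95% counting interval 1.46 to 1.55), short of the 2-fold threshold. Its levels were 16.7 RPKM in Yap+/-, 3.35 in Yap-/-, 25.1 in uninduced YapTg and 1039 in induced YapTg. The Yap+/- and uninduced libraries thus lay between the other 2 libraries and close to each other. The table does not separate transgene reads from those of the endogenous gene. Of 22 Hippo components and TEAD partners, 17 reached the floor and none was past 2-fold (median -0.24). Wwtr1, which encodes the YAP paralog TAZ, did not reach it. The atypical cadherin gene Fat1 (10.5, 10.7, 16.8 and 17.7 RPKM) and the angiomotin gene Amot (5.79, 5.41, 9.49 and 9.15 RPKM) had the lowest ratios, -0.64 and -0.63. Among 24 known YAP/TEAD targets 10 reached the floor, none past 2-fold, with a median of -0.14 against -0.11 for all genes. Cyr61 stood at 0.814, 0.655, 1.33 and 78.4 RPKM and Myof at 1.31, 0.909, 2.03 and 31.2 RPKM; both were high in the induced library only. The tissue factor gene F3 had the ratio furthest from 0, on the higher side, at 18.4, 6.31, 13.6 and 44.5 RPKM, and 4 of the 10 lay above 0. Of 23 fetal-like and regenerative genes 16 reached the floor (median 0.01). Of these Sprr1a, a cornified envelope precursor, was past 2-fold: its levels were 87.5, 29.9, 29.0 and 103 RPKM. Ly6a, the Sca-1 surface protein, leaned the other way at 6.67, 2.09, 13.0 and 356 RPKM.

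A regulator and its known target were among the genes furthest apart in these cultures. Isx is a gut homeobox repressor that is switched on by retinoic acid and acts on Bcmo1, which encodes the enzyme that cleaves beta-carotene to retinal, and on Scarb1, a lipid and carotenoid receptor. RefSeq promoter windows (GRCm38.p6, 150 bases up to the annotated start) are shown for Isx and Bcmo1, as a regulator and target that differed in opposite directions, and for the ileal bile acid genes Fabp6 and Slc10a2. They lie at chr8:74873024-74873173 (plus strand), chr8:117095715-117095864 (plus), chr11:43601563-43601712 (minus) and chr8:5105288-5105437 (minus), and RefSeq lists Bcmo1 as Bco1. Capitals mark TATAAA on either strand, which 7.57% of 32851 such windows hold, starting 28 bases before the start in Bcmo1 and, on the other strand, 29 bases before it in Fabp6. AGATAA, found on either strand in 5.65% of windows, was in none of these. These matches describe the sequence only.
Isx: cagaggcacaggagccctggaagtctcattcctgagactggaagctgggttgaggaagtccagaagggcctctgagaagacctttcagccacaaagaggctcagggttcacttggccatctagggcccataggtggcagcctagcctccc
Bcmo1: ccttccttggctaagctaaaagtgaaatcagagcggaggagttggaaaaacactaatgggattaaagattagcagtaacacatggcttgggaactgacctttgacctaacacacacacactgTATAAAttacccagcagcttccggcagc
Fabp6: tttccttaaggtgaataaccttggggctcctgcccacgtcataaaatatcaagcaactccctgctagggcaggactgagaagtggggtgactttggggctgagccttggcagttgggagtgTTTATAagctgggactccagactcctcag
Slc10a2: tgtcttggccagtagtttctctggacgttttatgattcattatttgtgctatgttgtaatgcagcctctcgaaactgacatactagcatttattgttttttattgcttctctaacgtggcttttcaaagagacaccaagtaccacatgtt

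Isx was lower in Yap+/- by 6.81-fold (counting interval 6.39 to 7.28). Its levels were 10.6 RPKM in Yap+/-, 0.429 in Yap-/-, 72.2 in uninduced YapTg and 65.6 in induced YapTg, low in both floxed cultures and high in both YapTg cultures. Bcmo1 was higher by 20.6-fold (counting interval 18.1 to 23.5). It stood at 48.6, 125, 2.36 and 1.64 RPKM, the reverse order of Isx in all 4 libraries but for the YapTg pair, where both genes were slightly lower with doxycycline. Scarb1, at 11.3, 32.2, 4.83 and 3.94 RPKM, was past 2-fold too. A list of 16 retinoid and carotenoid genes was drawn up after these values were seen. Over its 13 genes at the floor the median was 0.90, with 5 past 2-fold upward and Isx past it downward. Of the same list Adh1, a retinol-oxidising dehydrogenase, was past 2-fold at 908, 976, 426 and 54.3 RPKM. Bco2, which cleaves carotenoids off centre, stood at 36.4, 46.2, 17.8 and 2.60 RPKM. Its log2 ratio with the pseudocount was 0.9947, just short of a call. Rbp2, the enterocyte retinol carrier (1402, 1664, 897 and 177 RPKM), was within 2-fold, as was Lrat (2.41, 2.85, 2.86 and 0.690 RPKM), which esterifies retinol.

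The gut region lists differed between their members. Of 16 genes of the proximal small intestine 15 reached the floor, 13 of them above the all-gene median; 4 were at least 2-fold higher and 0 lower, with a list median of 0.35. S100g, the calcium carrier calbindin-D9k, led with 626, 537, 257 and 56.3 RPKM. The iron reductase gene Cybrd1 stood at 42.2, 8.81, 17.4 and 2.18 RPKM, the apolipoprotein gene Apoa4 at 822, 920.0, 353 and 79.6 RPKM and lactase (Lct) at 32.7, 50.1, 14.9 and 3.66 RPKM. In Apoa4, Lct and S100g both floxed cultures lay above both YapTg cultures, while Cybrd1 in Yap-/- lay below uninduced YapTg. Apoa4, Lct and Fabp1 are also in the enterocyte list, and the hormone genes of the region lists are in the enteroendocrine list. Region and lineage counts below are therefore not separate. The iron genes did not move as a group: the importer Slc11a2 stood at 25.6, 14.9, 26.9 and 9.50 RPKM and the exporter Slc40a1 at 9.63, 3.01, 8.17 and 6.88 RPKM. The regional transcription factors differed little. Gata4, which keeps jejunal identity, stood at 44.4, 43.5, 34.6 and 41.4 RPKM, the duodenal factor Pdx1 at 6.87, 4.15, 5.15 and 5.07 RPKM and Onecut2 at 7.16, 5.95, 7.72 and 5.08 RPKM.

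The 15 distal genes had 14 at the floor, with 0 higher and 2 lower and a median of -0.27, and 6 of the 14 lay above the all-gene median. Fabp6, the ileal bile acid binding protein, was lower by 6.85-fold (counting interval 6.11 to 7.71). Its levels were 12.7, 5.77, 86.7 and 3.13 RPKM, high in the uninduced library alone. Slc10a2, the ileal bile acid importer, stood at 5.80, 3.68, 13.8 and 27.6 RPKM, higher in both YapTg cultures. With median-ratio scaling its log2 ratio was -0.993, just short of a call. The exporter subunits Osta (23.9, 18.4, 36.2 and 41.3 RPKM) and Ostb (16.3, 34.0, 27.1 and 5.17 RPKM) were lower within 2-fold. Fgf15, the ileal bile acid signal, was near the floor at 0.602, 0.00816, 1.18 and 2.00 RPKM. The hormones of distal endocrine cells did not follow the bile acid genes: Gcg stood at 21.4, 35.4, 20.6 and 6.71 RPKM, Nts at 5.44, 7.79, 4.73 and 1.45 RPKM and Pyy at 2.51, 3.47, 0.929 and 0.739 RPKM. None of 39 Hox genes reached the floor, the highest being 0.344 RPKM in the pair. Car4, a carbonic anhydrase marked as colonic in the lists, was lower in Yap+/- at 3.25, 6.76, 11.1 and 0.602 RPKM. Of the pancreas list Ctrb1, a chymotrypsinogen gene, was higher at 11.6, 18.4, 2.76 and 0.195 RPKM, and Cela1 stood at 4.67, 4.61, 4.50 and 1.49 RPKM. Among 23 intestinal identity factors 22 reached the floor and Isx alone was past 2-fold. Their median of -0.08 turned to 0.05 with median-ratio scaling. Cdx2 stood at 72.8, 76.0, 62.5 and 69.5 RPKM, Hnf4a at 174, 166, 187 and 196 RPKM and Cdx1 at 48.9, 55.2, 89.2 and 41.9 RPKM. Creb3l3, a factor of fat and lipoprotein genes, had the highest ratio at 69.1, 83.9, 36.5 and 16.0 RPKM.

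**Figure D3:**
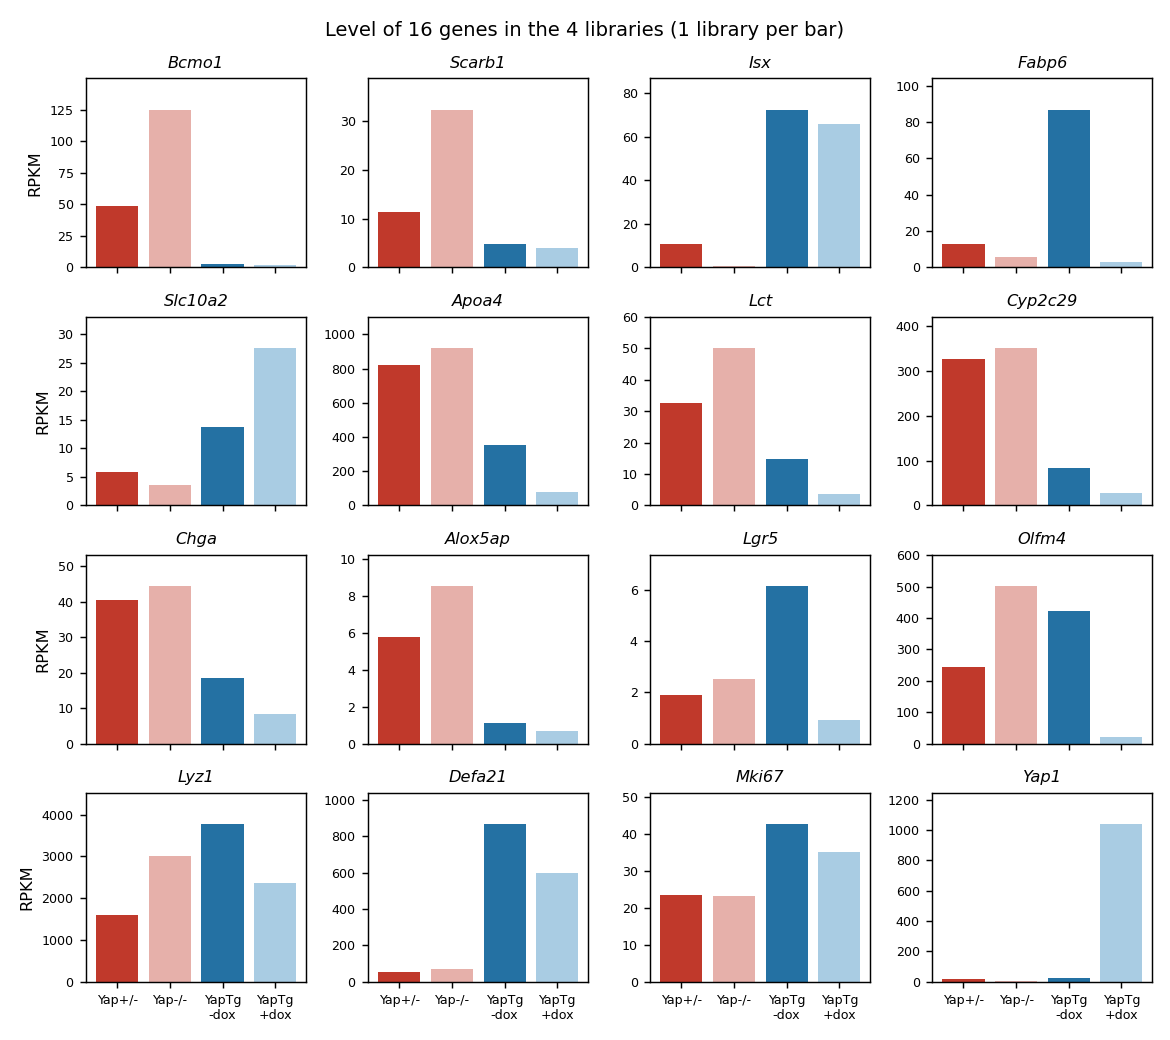
RPKM of 16 genes in the 4 libraries, 1 bar per library and a linear axis from 0 in each panel. The genes were chosen after their values were seen. Isx and Defa21 are high in both YapTg libraries, Bcmo1 and Cyp2c29 in both floxed libraries, and Fabp6 and Lgr5 in the uninduced YapTg library.

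Lineage markers leaned in opposite directions. In whole cultures fewer cells of a type and less RNA per cell cannot be told apart. All 19 crypt base stem cell markers at the floor (of 21) lay below the all-gene median, with a list median of -0.54, and 1, Lgr5, was past 2-fold. Lgr5, the R-spondin receptor that marks these cells, was lower by 3.23-fold (counting interval 3.01 to 3.47). It stood at 1.90, 2.51, 6.15 and 0.910 RPKM. Olfm4, a secreted stem cell marker, stood at 244, 501, 424 and 22.0 RPKM and Slc12a2, a chloride transporter, at 59.4, 70.9, 111 and 45.3 RPKM. The uninduced library was the highest of the 4 for 16 of the 19 markers (29.0% of all genes), and Yap-/- was above Yap+/- for 18 (65.2% of all genes). All 19 were already below 0 in the main pair, and both counts reuse its libraries. The shares of all genes are therefore not like measures. All 13 Wnt targets at the floor also lay below the all-gene median (median -0.41); several of them are in the stem cell list. Axin2, the feedback inhibitor of the pathway, stood at 10.6, 14.6, 18.5 and 6.79 RPKM, and Ascl2, a stem cell factor, at 5.97, 8.72, 6.88 and 3.22 RPKM.

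Paneth cell genes were lower for the most part: 10 of 13 at the floor lay below the all-gene median, 2 of them past 2-fold, and the median was -0.47. Lyz1, the Paneth lysozyme, stood at 1591, 3010.3, 3772 and 2358 RPKM and was lower by 2.37-fold (counting interval 2.35 to 2.39). Itln1, a lectin, stood at 511, 1119, 1192 and 711 RPKM and Mmp7, the protease that activates defensins, at 62.5, 95.2, 96.3 and 62.7 RPKM. Spink4 (565, 772, 555 and 158 RPKM) and Reg3g (99.0, 73.3, 93.8 and 22.6 RPKM), which other cells also make, were level in the pair.

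Alpha-defensins, the antimicrobial peptides of Paneth granules, formed the largest lower group among the lists. All 12 of the list were at least 2-fold lower in Yap+/-, with a median of -2.03, and by identifier 19 of 20 defensin genes were (median -1.75). Chromosome 8 held 5.73% of the genes tested and 25 of the 79 lower genes. Of its genes 4.01% were lower, against 0.726% of all genes. In the stretch that the defensins span 21 of the 22 genes at the floor were lower. That stretch was set by the defensins themselves, so its count is not separate from theirs. The reads of these near-identical copies may be split or lost between copies, and the counting rule is not given, so single genes are uncertain. Defa21 stood at 55.7 RPKM in Yap+/-, 70.7 in Yap-/-, 866 in uninduced YapTg and 598 in induced YapTg. It was lower by 15.5-fold (counting interval 14.7 to 16.4), and both floxed cultures lay far below both YapTg cultures. Defa22 (118, 165, 1189 and 817 RPKM) and Defa23 (8.25, 9.81, 104 and 73.6 RPKM) had the same shape. Defa24, the most abundant, did not: it stood at 2358, 4765, 6247 and 4401 RPKM, with Yap-/- above induced YapTg. At the other end Gm10104 stood at 178, 403, 233 and 153 RPKM, lower by 1.31-fold (counting interval 1.25 to 1.37). All 20 genes were higher in Yap-/- than in Yap+/-, against 65.2% of all genes, and all 20 were lower with doxycycline, against 56.5%. Both floxed libraries were below both YapTg libraries in 12 of them (40.5% of all genes). All 20 were already lower in Yap+/- than in uninduced YapTg, which is part of that pattern. The share of all genes is therefore not a like measure, and no excess is read from it. Together the 20 took 0.257%, 0.483%, 0.843% and 0.578% of gene reads.

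Of the defensin genes 9 matched a RefSeq promoter window, all of 150 bases. Windows are printed for copies with wide and with narrower differences: Defa21 at chr8:21025395-21025544, Defa23 at chr8:21054890-21055039 and Gm15284 (RefSeq Defa30) at chr8:21134500-21134649, all plus strand, GRCm38.p6, with TATAAA in capitals.
Defa21: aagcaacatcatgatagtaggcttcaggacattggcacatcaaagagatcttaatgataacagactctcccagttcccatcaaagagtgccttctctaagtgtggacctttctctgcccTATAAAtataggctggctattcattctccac
Defa23: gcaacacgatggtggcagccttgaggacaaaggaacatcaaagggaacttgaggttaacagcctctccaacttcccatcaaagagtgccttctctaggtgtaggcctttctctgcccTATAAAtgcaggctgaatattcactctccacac
Gm15284: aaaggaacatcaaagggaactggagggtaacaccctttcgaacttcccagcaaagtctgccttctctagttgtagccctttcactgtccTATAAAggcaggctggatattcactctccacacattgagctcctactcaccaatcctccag
The Defa22 window is identical to that of Defa21, and their log2 ratios were -3.32 and -3.93. The Defa-rs7 window is identical to that of Defa23, but the log2 ratios were -1.68 and -3.50. Gm14850 and Gm10104 share 96.7% of the window and had log2 ratios of -2.22 and -0.38. Defa21 and Gm15284 share 62.7%, with -3.93 and -1.55. TATAAA begins 31 bases before the annotated start in Defa21 and 61 bases before it in Gm15284. Their windows are thus offset, which lowers the shared percentage. Likeness of the windows and size of the difference did not run together in every pair, as the identical Defa23 and Defa-rs7 windows show.

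Goblet cell genes showed no common direction: of 22, all at the floor, 9 lay above and 13 below the all-gene median (-0.24 for the list), with 1 past 2-fold. Retnlb, a goblet cell antimicrobial protein, was lower at 16.5, 28.6, 52.3 and 15.4 RPKM. The mucin Muc2 stood at 31.6, 50.2, 59.5 and 12.5 RPKM, its partner Fcgbp at 163, 217, 247 and 43.9 RPKM and the trefoil peptide Tff3 at 1051, 1328, 918 and 271 RPKM. The Notch list, which governs the choice between absorptive and secretory fates, had 15 of 21 genes at the floor, 0 past 2-fold and a median of -0.28. Notch1 stood at 1.56, 1.91, 2.84 and 1.37 RPKM, Dll1, a ligand on secretory precursors, at 8.62, 9.13, 10.7 and 4.12 RPKM and the secretory master factor Atoh1 at 5.43, 6.83, 7.23 and 1.04 RPKM.

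Enteroendocrine and tuft genes were higher in Yap+/-. Of 22 enteroendocrine genes at the floor (of 31) 21 lay above 0, 3 were at least 2-fold higher and 0 lower, and the median was 0.74. Pyy reached the floor through Yap+/- only, which favours higher values. Without a floor the list median lay 0.39 above that of all genes, against 0.85 with it. Chga, the granule protein chromogranin A, stood at 40.6, 44.4, 18.5 and 8.26 RPKM and was higher by 2.20-fold (counting interval 2.09 to 2.30). The hormone genes Ghrl (ghrelin, 40.4, 48.3, 17.0 and 11.2 RPKM) and Sct (secretin, 29.8, 36.2, 12.6 and 9.73 RPKM) were past 2-fold too. Chgb stood at 112, 122, 60.2 and 28.3 RPKM and Cck at 44.2, 54.7, 22.5 and 18.4 RPKM, just short of it. Both floxed cultures lay above both YapTg cultures in 21 of the 22 (22.1% of all genes). The exception was Neurog3, the factor of endocrine precursors, at 2.70, 3.53, 4.38 and 0.457 RPKM: it was highest in uninduced YapTg. A ratio above 0 in the main pair is part of that pattern, so the share of all genes is not a like measure.

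Tuft cells are chemosensory cells that sense luminal microbes. Of 14 tuft genes at the floor (of 23) 13 lay above 0, 4 were at least 2-fold higher and 0 lower, with a median of 0.89. Some, Dclk1, Trpm5 and Pou2f3 among them, reached the floor through Yap+/- only, so the floor itself favours higher values. Without a floor the list median lay 0.49 above that of all genes, against 1.00 with it. Alox5ap, the leukotriene synthesis helper, was higher by 5.20-fold (counting interval 4.15 to 6.59). It stood at 5.77, 8.53, 1.11 and 0.662 RPKM. Rgs13 (5.70, 7.61, 1.23 and 0.761 RPKM) and Sh2d7 (3.73, 5.26, 1.02 and 0.685 RPKM) were also past 2-fold. Dclk1, the usual marker, was low at 1.73, 2.42, 0.450 and 0.453 RPKM, and Trpm5, the taste channel, stood at 2.23, 3.71, 0.974 and 0.727 RPKM. The master factor Pou2f3 was near the floor at 1.44, 1.64, 0.796 and 0.269 RPKM. Both floxed cultures lay above both YapTg cultures in 13 of the 14 (22.1% of all genes). Here too the ratio above 0 in the main pair is part of the pattern, so that share is not a like measure. Yap-/- was above Yap+/- in all 14, against 65.2% of all genes.

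Enterocyte genes leaned higher: 23 of 32 at the floor lay above the all-gene median (0.29 for the list), 4 were at least 2-fold higher and 1 lower. Those past 2-fold upward were Cd36, Fabp2, Apoa4 and Lct. Cd36, a fatty acid transporter, stood at 9.60, 11.6, 2.74 and 0.694 RPKM and Fabp2, a fatty acid carrier, at 1054, 1517, 479 and 119.7 RPKM; Fabp1, its partner, was at 3457, 5766, 1938 and 106 RPKM. Other genes of fat absorption and export lay nearer to level: Mttp, the lipid transfer protein, stood at 344, 398, 283 and 117 RPKM, Dgat2, a triglyceride synthesis enzyme, at 45.4, 52.7, 33.1 and 18.1 RPKM and Apob, the chylomicron apolipoprotein, at 85.0, 85.8, 107 and 126 RPKM, lowest in both floxed cultures. Disaccharidases did not move together: the lactase gene was higher as above, while Mgam, the maltase-glucoamylase, was lower at 109.9, 119, 235 and 218 RPKM, and sucrase-isomaltase (Sis) stood at 495, 790.3, 612 and 129.7 RPKM. Mgam, the lower call of this list, was no longer past 2-fold with median-ratio or upper-quartile scaling. Alkaline phosphatase (Alpi) stood at 491, 416, 369.8 and 349 RPKM. In the YapTg line 30 of the 32 were lower with doxycycline than without, against 56.5% of all genes.

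**Figure D4:**
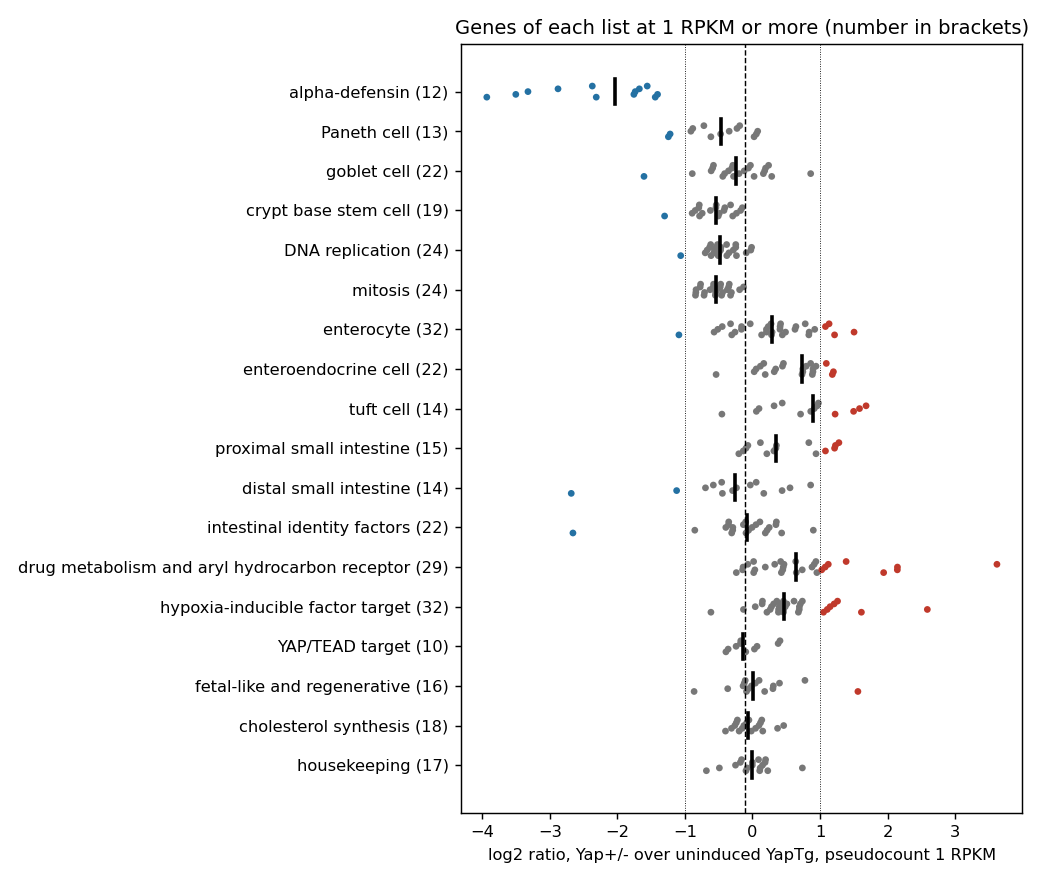
Log2 ratio of Yap+/- over uninduced YapTg for the genes at the floor of 18 lists, 1 point per gene, red at least 2-fold higher and blue at least 2-fold lower. Black bars are list medians, the dashed line is the median of all genes (-0.11) and dotted lines mark 2-fold. The hypoxia list was added after values were seen.

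Proliferation genes were lower in Yap+/- by small amounts. All 24 DNA replication genes and all 24 mitosis genes were below 0, with medians of -0.48 and -0.54. Measured against the all-gene median 21 and 24 were below it. A single gene, Pole, the catalytic subunit of a replicative polymerase, was past 2-fold, at 2.02, 2.59, 5.31 and 6.87 RPKM, and it no longer was with median-ratio or upper-quartile scaling. Mki67, the proliferation antigen Ki-67, stood at 23.4 RPKM in Yap+/-, 23.2 in Yap-/-, 42.6 in uninduced YapTg and 35.0 in induced YapTg. It was lower by 1.82-fold (counting interval 1.78 to 1.86), with both floxed cultures near 23 RPKM. Top2a, a topoisomerase of dividing cells, stood at 20.9, 22.7, 36.5 and 28.8 RPKM and Cenpe, a kinetochore motor, at 4.05, 4.85, 8.06 and 7.06 RPKM. The replicative helicase genes Mcm2 (18.6, 20.5, 27.9 and 26.5 RPKM) and Mcm4 (16.2, 18.0, 26.3 and 22.4 RPKM) had the same order. Both floxed cultures lay below both YapTg cultures in 21 of the 24 mitosis and 17 of the 24 replication genes (40.5% of all genes). All of them were already below 0 in this pair, which is part of that pattern. The share of all genes is therefore not a like measure. Ccne2, a cyclin of S phase entry (4.26, 4.25, 4.30 and 4.57 RPKM), was level in the pair. With each length class centred the medians were -0.35 and -0.43.

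The list of cyclin-dependent kinase inhibitors and p53 targets leaned the other way. Of its 18 genes at the floor 15 lay above the all-gene median (0.23 for the list), with 0 past 2-fold. Cdkn1a, the inhibitor p21, stood at 90.6, 64.8, 51.8 and 87.8 RPKM and Cdkn1c, the inhibitor p57, at 3.09, 4.46, 1.67 and 24.2 RPKM. Cdkn1b stood at 8.30, 8.47, 9.66 and 9.36 RPKM.

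Genes of drug and steroid metabolism were higher in Yap+/- for the most part and held the most higher calls of any list, although the tuft, enteroendocrine and retinoid lists had higher medians. Of 31 genes 29 reached the floor, 26 above the all-gene median; 8 were at least 2-fold higher and 0 lower, with a median of 0.64. Cyp2c29, a cytochrome P450, stood at 327 RPKM in Yap+/-, 351 in Yap-/-, 84.2 in uninduced YapTg and 28.7 in induced YapTg. It was higher by 3.88-fold (counting interval 3.81 to 3.95). Gsta3, a glutathione transferase, stood at 57.5, 66.0, 12.2 and 5.74 RPKM and Ces1g, a carboxylesterase, at 8.70, 7.19, 1.19 and 0.0779 RPKM. In both, floxed cultures were high and YapTg cultures low. The Cyp2c and glutathione S-transferase families were counted after the values of Cyp2c29 and Gsta3 were seen. At least 2-fold higher were 7 of 11 Cyp2c genes (median 1.12) and 4 of 18 glutathione S-transferase genes (median 0.72), against 1.08% of all genes. In either family 0 were at least 2-fold lower, against 0.726% of all genes. Members of both families are alike in sequence and may share reads. Cyp1a1, the classical target of the aryl hydrocarbon receptor, was a difference of 1 library: it stood at 14.4, 0.0564, 0.255 and 0.665 RPKM, higher in Yap+/- than in uninduced YapTg by 56.6-fold (counting interval 39.5 to 84.1). The receptor gene Ahr was level at 4.64, 3.99, 5.21 and 5.06 RPKM. Hsd17b13, a lipid droplet dehydrogenase outside the list, stood at 63.8, 59.8, 15.6 and 4.29 RPKM.

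Lists chosen after their values were seen covered genes under hypoxia-inducible factors and under the fatty acid receptor PPAR alpha. Of 32 hypoxia genes at the floor 30 lay above the all-gene median (0.46 for the list), 7 at least 2-fold higher and 0 lower. Ndufa4l2, a mitochondrial protein, was higher by 14.7-fold (counting interval 9.82 to 22.9). It stood at 8.51, 2.42, 0.580 and 0.0277 RPKM, with the Yap+/- library alone at the top. Bnip3, a mitophagy receptor, stood at 17.2, 10.2, 4.95 and 1.11 RPKM and Egln3, an oxygen-sensing hydroxylase, at 45.3, 29.6, 18.3 and 7.43 RPKM. The glycolytic Pgk1 stood at 41.4, 31.3, 24.4 and 25.2 RPKM. Unlike in the tuft list, Yap-/- was above Yap+/- in 3 of these 32 genes, against 65.2% of all genes. All 20 PPAR alpha targets at the floor were above 0 (median 0.50), 4 of them past 2-fold, among them Acot1, a thioesterase, at 23.2, 29.3, 8.95 and 2.45 RPKM.

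The remaining states differed less. Of 19 interferon genes at the floor 1 was lower past 2-fold (median -0.24): Psmb8, an immunoproteasome subunit, at 5.95, 12.2, 16.4 and 6.77 RPKM. Isg15 stood at 2.83, 3.18, 1.97 and 49.0 RPKM and Bst2 at 4.07, 7.35, 8.56 and 21.2 RPKM. Cd74, the class II invariant chain, was lower at 0.361, 0.408, 4.31 and 1.92 RPKM, though H2-Ab1 of the same pathway stood at 2.09, 0.789, 1.45 and 0.654 RPKM. None of 15 immediate early and heat shock genes (median 0.17), 17 integrated stress response genes (-0.01) or 18 cholesterol synthesis genes (-0.07) was past 2-fold. Junb, an AP-1 subunit, stood at 26.6, 22.2, 15.3 and 37.5 RPKM and the stress factor Cebpb at 15.6, 15.7, 8.79 and 14.8 RPKM. Reg1, a secreted lectin of regenerating gut, was higher at 1135, 795, 555 and 33.6 RPKM, and Duox2, an oxidase, was lower at 2.27, 2.12, 5.70 and 0.414 RPKM. With median-ratio scaling the log2 ratio of Duox2 was -0.92, short of a call. The 17 housekeeping genes had a median of 0.00. Of 90 ribosomal protein genes, a set chosen by name after the values were seen, 1 was higher and 1 lower (median 0.04). The set also admits pseudogene names, and the higher member has such a name.

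The genes were also read in a pair of libraries that shares none with this one, Yap-/- over induced YapTg. That pair differs in line and, far more than here, in Yap dose, and these cannot be told apart. Of the 118 higher genes 93 (78.8%) were at least 2-fold higher there too and 8 were at least 2-fold lower, while 8.9% of all genes were higher. Of the 79 lower genes 31 (39.2%) were at least 2-fold lower there too and 7 higher, while 6.84% of all genes were lower. Of the 118 higher genes 93 were also lower with doxycycline in the YapTg line, against 56.5% of all genes, and this enters that second pair. A stricter reading takes genes where each floxed library was at least 2-fold from each YapTg library. This held for 79 of the higher genes (0.726% of all genes) and 22 of the lower (0.202%). With the 2 libraries of each line also within 1.5-fold of each other on the log2 scale with the pseudocount, which lets low genes differ by more in plain RPKM, 17 higher (0.156%) and 12 lower genes (0.11%) remained.

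**Figure D5:**
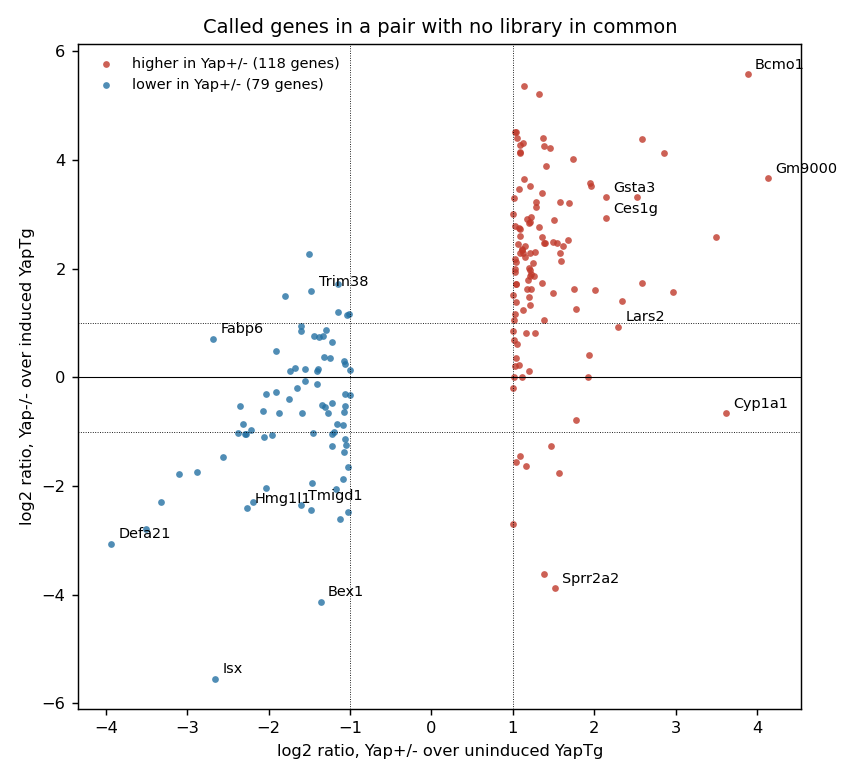
The 197 genes called in Yap+/- over uninduced YapTg (horizontal axis, log2 ratio), placed on the vertical axis by their log2 ratio in Yap-/- over induced YapTg. Dotted lines mark 2-fold. Of the red higher genes 93 of 118 lie above the upper dotted line, and of the blue lower genes 31 of 79 lie below the lower one.

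Among the genes of this strict line pattern the predicted gene Gm9000, a processed pseudogene in the annotation, stood furthest apart. Its levels were 229 RPKM in Yap+/-, 163 in Yap-/-, 12.0 in uninduced YapTg and 11.9 in induced YapTg, higher by 19.0-fold (counting interval 17.3 to 20.9). On the lower side Cwc22, a splicing factor, stood at 2.56, 2.23, 15.2 and 14.8 RPKM. It was lower by 5.94-fold (counting interval 5.54 to 6.37), with each line's 2 libraries nearly level. Hmg1l1 (0.768, 0.692, 7.47 and 7.97 RPKM), Gm13698 (1.28, 1.21, 8.35 and 8.01 RPKM) and the nucleoporin gene Ranbp2 (13.4, 14.1, 32.6 and 35.2 RPKM) had the same shape. The pattern also held the defensin genes Defa20, Defa21, Defa22 and Defa23. It held the predicted genes Gm7861 (173, 259, 1028 and 715 RPKM) and Gm14851 (312, 422, 1300 and 908 RPKM) too, both on chromosome 8. It held the endocrine genes Ghrl and Sct and the tuft genes Alox5ap, Rgs13 and Sh2d7 on the higher side. Of 105 processed pseudogenes tested 7 were higher and 0 lower, against 1.08% and 0.726% of all genes. Copies such as these share reads with their parent genes. A short list of 21 genes known to vary between mouse strains or in copy number had 12 at the floor. Of these only St3gal4, a sialyltransferase, was past 2-fold. St3gal4 stood at 52.2, 230.4, 117 and 69.7 RPKM, lowest in Yap+/- and highest in Yap-/-. The list does not hold Cwc22 or Defa20 to Defa23, and variable genes outside it were not counted. Glo1 stood at 27.8, 55.3, 35.4 and 35.5 RPKM and Nnt at 13.7, 11.7, 13.0 and 5.52 RPKM.

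Further genes at the ends of the ranking followed the lines less strictly or not at all. Omt2b (15.7, 13.8, 1.89 and 0.489 RPKM) was high in both floxed cultures, and Tmigd1, an adhesion molecule (3.45, 3.03, 12.5 and 19.6 RPKM), and Bex1 (0.444, 0.374, 2.70 and 23.1 RPKM) were high in both YapTg cultures. Lars2, the mitochondrial leucyl-tRNA synthetase, stood at 544, 158, 110.1 and 82.7 RPKM, and Xpnpep2, an aminopeptidase, at 11.1, 4.28, 2.15 and 2.95 RPKM. Both were highest in Yap+/-, with Yap-/- nearer to the YapTg cultures. Tmem45b was lowest in Yap+/- at 33.5, 77.4, 88.9 and 46.0 RPKM. Trim38, a ubiquitin ligase, was highest in uninduced YapTg and lowest in induced YapTg, at 5.26, 9.82, 16.4 and 2.62 RPKM. Ear2, an eosinophil-type ribonuclease gene, had 0 reads in Yap+/- against 132 in uninduced YapTg, at least 55.7-fold lower when the floor is set at 3 reads. Its near-identical family members may share these reads.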

How the data were processed

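RNA was sequenced from 4 organoid cultures, 1 library per group, with groups taken from the labels' genotype and title. The deposited table holds 22632 genes and 4 columns of values, all used, with 0 columns left without a sample. No header names the unit: the authors' values were taken to be RPKM because low values come in whole-read steps once length and depth are taken out. Per the submitters' processing notes CASAVA 1.8, FastQC, TopHat 1.4.1 and the mm9 build were used. The counter, annotation, strand setting and handling of multiply matched reads were not given in the sources used here, so near-identical genes and overlapping antisense genes are uncertain.

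Library totals and reads were recovered with exon lengths from GENCODE M21 (GRCm38), to which 20750 identifiers (91.7%) matched. For 17378 of 17378 genes above 0 a length was found that makes reads whole within 0.02 in every library, and for 7048 it equalled the GENCODE length. Where several lengths fit, read numbers are less certain.

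The deposited RPKM values were used as they stand. The log2 ratio has a pseudocount of 1 RPKM, which understates differences of low genes, and folds in the text are plain ratios of RPKM. A gene was called at 2-fold on the log2 scale. Intervals are exact conditional binomial (Clopper-Pearson) 95% intervals of recovered reads and cover counting error only. Scripts ran in Python 3.11.15 with numpy 2.4.6, pandas 2.3.3, scipy 1.17.1, matplotlib 3.10.9 and biopython 1.88, and were tested on simulated data. Promoter windows are from RefSeq (GRCm38.p6), matched by symbol, and window identity is from a global alignment. No coordinates of the authors' build were used.

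The genes, lists and tests were chosen with earlier results of these data known. There were 34 lists, and 5 more were added after values were seen. The Cyp2c, glutathione S-transferase and ribosomal protein sets were also chosen after values were seen. Genes were named by a rule: Yap1, the 10 highest and 10 lowest ratios at 5 RPKM or more without predicted or multi-copy genes, the first 3 members of each list and its 2 furthest from 0, and 6 per direction for the second pair. Genes named outside it were chosen after their values were seen: Adh1, Apob, Atoh1, Cck, Ccne2, Dgat2, Ear2, Fabp1, Fabp2, Fgf15, Gcg, Gm7861, Gm9000, Gm13698, Gm14851, Lrat, Mgam, Mttp, Nts, Ostb, Pyy, Rbp2, Reg3g, Scarb1, Sh2d7, Slc11a2, Slc40a1, Spink4, Vil1 and, among the defensins, Defa20, Defa22, Defa-rs7, Gm10104, Gm14850 and Gm15284. Alternatives were other pseudocounts, floors, scalings and thresholds, lists without their furthest member, and centring by length.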

Additional observations from a re-analysis of the deposited data

How the results depend on the processing

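With 1 library per group no test was possible, and depth limits only the lowest genes: the counts were 117 higher and 79 lower when the counting interval also had to exclude 1. No paired analysis was possible because each group is 1 library. The count of genes at least 2-fold higher was 195 with a pseudocount of 0.1, 56 with a pseudocount of 5 and 14 at 4-fold. The count lower was 213, 43 and 20 under the same settings and 38 with established gene names. The count of lower genes also lower in the second pair was 18 with median-ratio scaling of all libraries, against 31; the cause was not tested.

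List values are given here as the list median minus that of all genes. Of 270 such values under alternatives 258 kept their sign, and 218 moved by less than the counting interval of a typical member. With a pseudocount of 5 the differences shrank by construction, to 0.31 for proximal genes, -0.35 for stem cell, -0.14 for Paneth cell, 0.42 for enteroendocrine, 0.41 for tuft cell, 0.35 for enterocyte, -0.24 for DNA replication, -0.33 for mitosis and 0.70 for drug metabolism genes. With a pseudocount of 0.1 they were -0.49 for Paneth and 1.32 for tuft cell genes. Without a floor, which adds genes near 0, they were 0.38 for proximal, -0.42 for Paneth, 0.39 for enteroendocrine, 0.49 for tuft, 0.33 for enterocyte and 0.57 for drug metabolism genes. With a floor of 5 RPKM they were -0.58 for Paneth and 1.32 for tuft cell genes. Centred by length class, an alternative added after the data were seen, they were -0.43 for Paneth, -2.07 for alpha-defensin and 0.68 for drug metabolism genes. Without the member furthest from 0 they were -0.30, -1.64 and 0.67 for the same lists. Signs turned for YAP/TEAD targets with a floor of 5 RPKM (0.19), without a floor (0.0333) and centred by length (0.0325), for interferon genes (0.0173), cholesterol synthesis genes (-0.0214), intestinal identity factors (-0.0095), MHC class II genes (-0.0618) and Reg family and other antimicrobial genes (-0.0075) without a floor, and for the mitochondrial genome with a pseudocount of 5 (-0.0322), without a floor (-0.0619), with a floor of 5 RPKM (-0.0091) and centred by length (-0.14). The cause was not tested.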

Other observations

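The Y-linked genes left out of the comparison differed between the lines as the 4 libraries show: Ddx3y stood at 2.72, 3.55, 0 and 0 RPKM, Eif2s3y at 4.05, 5.07, 0 and 0, and Kdm5d at 1.15, 1.68, 0 and 0, in the order Yap+/-, Yap-/-, uninduced YapTg and induced YapTg. Mitochondrial genome genes took 2.29%, 2.24%, 2.34% and 1.99% of gene reads in that order. Of their 12 genes at the floor 0 were past 2-fold.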
